A study of Arabidopsis thaliana with 18 samples.

Results

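The histone genes described here are 41 nuclear genes of Arabidopsis thaliana that encode the proteins on which DNA is wound. They were listed by AGI locus code and not by a threshold on any value, though earlier results of these data were known when the list was made. All 41 are among the 26073 genes listed for each library. By the protein they encode they are 8 genes for H4, 5 for H3.1, 3 for H3.3, 1 for the centromeric H3 (CENH3), 4 for canonical H2A, 2 for H2A.X, 3 for H2A.W, 3 for H2A.Z, 9 for H2B and 3 for the linker histone H1. RNA sequencing of dissected organs gave 18 libraries, from the cotyledon, hook and hypocotyl of wild-type Col-0 (WT) and of the mutant pifq, with 3 libraries in each of 6 groups. Every group was kept dark for 4 d at 22 °C on plates of MS medium that held 3% sucrose, so all seedlings were dark-grown and sugar-fed. The name pifq stands for a quadruple mutant of PIF1, PIF3, PIF4 and PIF5, which encode basic helix-loop-helix factors that hold back light development in darkness. Its alleles, the number of seedlings pooled per library and any selection of polyadenylated RNA are not given in the sources used here. The labels number the replicates as Bio 1 to 3 and do not say what was kept separate, so the p-values speak for the spread among these 18 libraries, part of which may be technical.

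A nucleosome holds a pair each of H2A, H2B, H3 and H4, and H1 binds the DNA where it enters and leaves. H4, H3.1 and canonical H2A are made mainly in S phase and are laid down behind the replication fork, H3.1 by the chaperone CAF-1. H3.3 and H2A.Z are replacement variants, exchanged into chromatin outside replication by the HIR and SWR1 complexes, and are also made in cells that do not divide. H2A.W marks heterochromatin, H2A.X is phosphorylated at DNA breaks, and CENH3 builds the centromere. In an etiolated seedling the hypocotyl lengthens by cell expansion, while the cotyledons and the apex keep cells that can divide.

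Plant genes for S-phase histones are known for short promoter elements, above all the octamer CGCGGATC. In the 300 bases from 250 before to 50 after the annotated gene start (TAIR10.1, RefSeq annotation), the octamer was present on either strand in 10 of the 41 histone genes (24.4%), against 40 of 27443 protein-coding nuclear genes (0.146%). Those 10 were AT1G07660 and AT5G59690 of H4, HTR1, HTR2 and HTR9 of H3.1, HTA10 and HTA13 of H2A, HTA6 of H2A.W, HTR5 of H3.3 and H1.1. None of the 9 H2B genes carried it. Only exact matches were counted, so near matches to the octamer in these or other genes are not included. The hexamer ACGTCA was present in 8 of the 9 H2B genes (88.9%), all but HTB7, and in 9.19% of all promoters. An E2F site, searched as TTTCCCGC, TTTGGCGC, TTTCGCGC or TTTGCCGC, was found in AT3G45930, AT3G46320 and HTB2 (7.32% of members and 1.76% of all promoters). No match of one of these 3 motifs overlapped a match of another. The G-box CACGTG and the PBE-box CACATG, sequences that PIF proteins bind, were each present in 4 members (9.76%), against 7.68% and 12.9% of all promoters. The G-box was in HTR3, HTA7, HTB7 and H1.3, and the PBE-box in AT5G59690, HTA5, HTB1 and H1.3. Letters that match a motif describe the sequence and do not show that a factor binds there. The 200 bases before the gene start are printed for 7 of the genes that hold an octamer or a hexamer, 5′ to 3′ on the strand of the gene, with octamer, hexamer and E2F matches in capitals.
HTR1, H3.1, chr5:26120582-26120781, minus strand: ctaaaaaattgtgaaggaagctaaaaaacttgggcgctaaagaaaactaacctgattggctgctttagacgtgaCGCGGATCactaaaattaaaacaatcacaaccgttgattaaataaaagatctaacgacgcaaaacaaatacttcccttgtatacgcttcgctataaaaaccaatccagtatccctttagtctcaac
HTR2, H3.1, chr1:2972335-2972534, minus strand: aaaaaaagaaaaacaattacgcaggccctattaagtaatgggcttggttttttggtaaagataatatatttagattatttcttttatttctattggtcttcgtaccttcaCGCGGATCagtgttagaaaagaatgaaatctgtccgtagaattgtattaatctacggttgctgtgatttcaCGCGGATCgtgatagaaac
HTA10, H2A, chr1:18926611-18926810, plus strand: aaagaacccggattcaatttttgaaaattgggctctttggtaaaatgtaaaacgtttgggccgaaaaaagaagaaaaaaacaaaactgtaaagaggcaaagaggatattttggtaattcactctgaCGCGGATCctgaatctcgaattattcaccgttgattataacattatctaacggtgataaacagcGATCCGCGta
HTA6, H2A.W, chr5:24116221-24116420, minus strand: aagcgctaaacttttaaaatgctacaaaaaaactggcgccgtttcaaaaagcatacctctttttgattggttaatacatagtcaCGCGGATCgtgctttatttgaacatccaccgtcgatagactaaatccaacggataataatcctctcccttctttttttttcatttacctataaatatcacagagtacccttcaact
HTR5, H3.3, chr4:18558946-18559145, minus strand: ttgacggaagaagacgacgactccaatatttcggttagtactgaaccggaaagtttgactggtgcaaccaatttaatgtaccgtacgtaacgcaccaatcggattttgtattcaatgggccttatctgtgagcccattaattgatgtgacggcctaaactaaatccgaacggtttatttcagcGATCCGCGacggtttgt
HTB2, H2B, chr5:7652715-7652914, minus strand: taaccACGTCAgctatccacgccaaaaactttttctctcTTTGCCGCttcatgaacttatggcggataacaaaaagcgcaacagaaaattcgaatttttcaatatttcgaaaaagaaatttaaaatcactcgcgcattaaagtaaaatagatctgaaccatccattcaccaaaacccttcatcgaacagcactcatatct
HTB6, H2B, chr3:19889097-19889296, plus strand: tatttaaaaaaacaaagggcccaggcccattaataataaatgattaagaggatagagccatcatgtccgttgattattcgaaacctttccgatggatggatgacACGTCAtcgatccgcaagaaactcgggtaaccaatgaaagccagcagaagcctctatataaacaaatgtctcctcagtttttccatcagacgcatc

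In HTR1 and HTA6 the octamer began 126 and 116 bases before the start. HTR2 and HTA10 each held 2 copies, in the same orientation in HTR2 and in opposite orientations in HTA10. The copy in HTR5, an H3.3 gene whose transcripts moved opposite to those of HTR1, was inverted and lay 17 bases before the start.

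**Figure D1:**
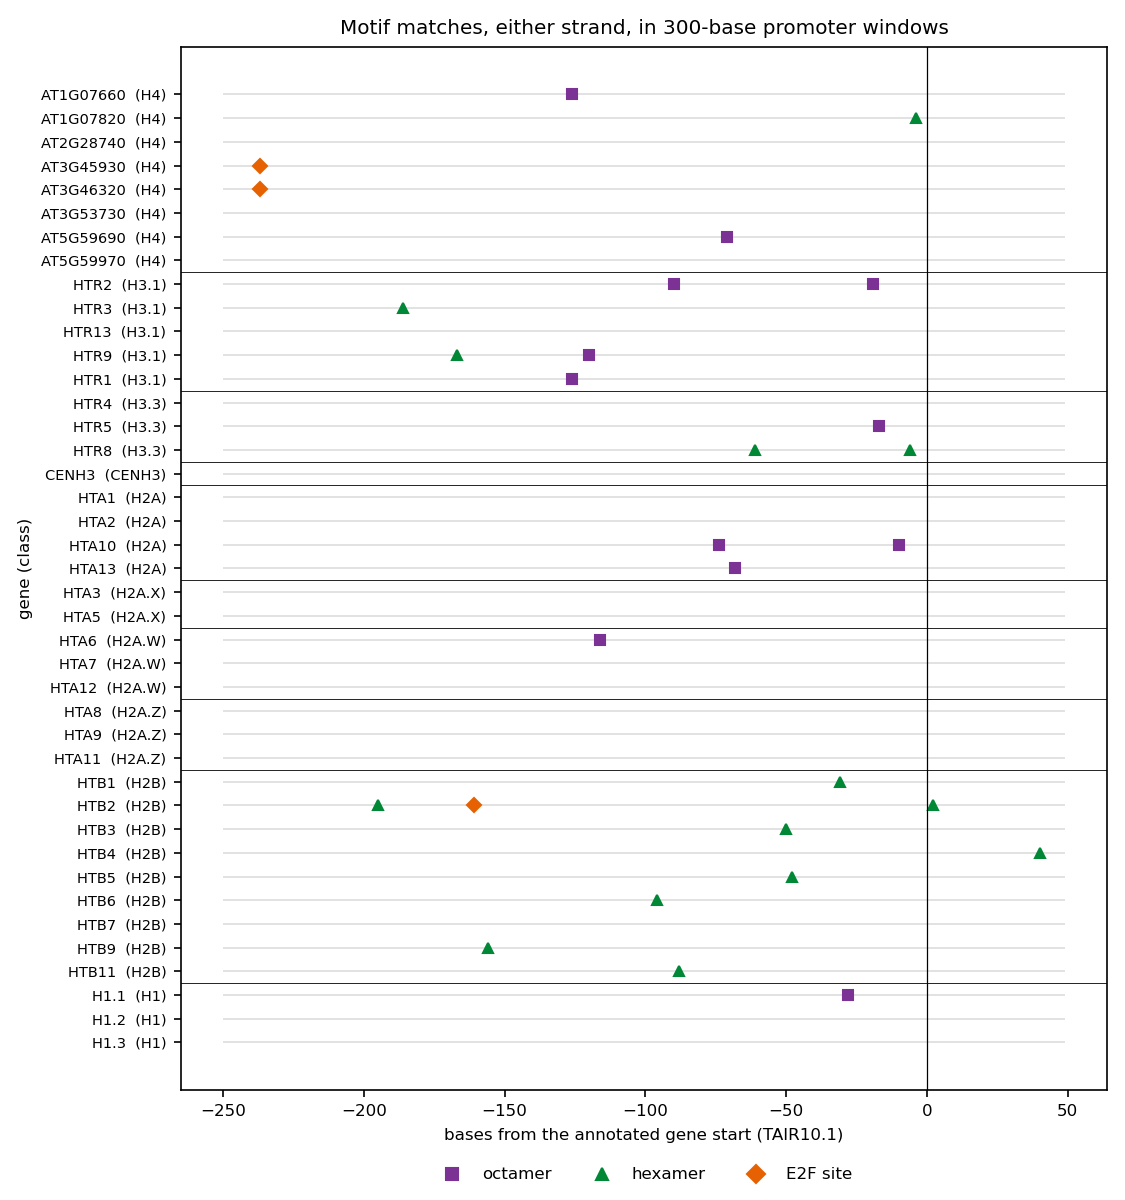
Matches to the octamer, the hexamer and the E2F site in the promoter window of each of the 41 genes, by distance in bases from the annotated gene start, with genes in rows by class. Octamers lie in H4, H3.1, H2A, H2A.W, H3.3 and H1 rows, and hexamers in 8 of the 9 H2B rows and in 4 other genes.

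The deposited values are FPKM (fragments per kilobase of exon, scaled to library size), and the values step in whole reads that put 12955815 to 20701103 reads or pairs behind each library. PIF3 lay between 1.80 and 4.46 FPKM in the 9 pifq libraries and between 40.1 and 90.8 FPKM in the 9 WT libraries, and PIF5 between 2.92 and 5.22 against 6.65 and 16.1. The ranges of PIF1 and PIF4 overlapped between the genotypes, so those 2 genes do not check the labels. Summed chloroplast-encoded transcripts moved with genotype, with a median of 14376 FPKM in WT and 908 in pifq cotyledons, 7951 and 636 in hooks, and 2433 and 2867 in hypocotyls. Mitochondrial transcripts did so too, with 4231 and 77.3, 10016 and 92.9, and 8337 and 2132 FPKM. The pifq hypocotyl libraries were far apart, at 2867, 4307 and 316 FPKM for the chloroplast and 2132, 4788 and 226 FPKM for mitochondria, with replicate 3 the lowest in both. On the deposited scale the median log2 change of all genes, pifq against WT, was -0.10 in cotyledon, 0.12 in hook and 0.17 in hypocotyl, and median-ratio scaling moved it to 0.04, -0.02 and -0.03. Replicate 2 of the pifq hook stood apart from replicates 1 and 3 on the first principal component, which held 50.35% of the variance (-19.1 against -53.3 and -54.8). Changes below are pifq against WT as differences of log2(FPKM + 1), so that changes of faint genes come out too small, and a gene is called at an adjusted p under 0.05 over all 19349 genes tested.

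Most histone genes rose in pifq cotyledons and hooks, and fewer did in hypocotyls. In cotyledons 29 of the 41 were called higher and 4 lower, against 24.4% of all genes tested called higher and 35.4% lower. In hooks 32 were called higher and 3 lower (36.6% and 24.0% of all genes), and without replicate 2 of the pifq hook 32 and 2. In hypocotyls the counts were 20 and 7 (35.9% and 16.5%), and without replicate 3 of the pifq hypocotyl 21 and 6. All 41 passed the filter on low values. In whole organs, a change in the number of cells of a type and a change in RNA per cell cannot be told apart. With median-ratio scaling the counts were 32 and 4 in cotyledons (32.9% and 27.0% of all genes), 32 and 6 in hooks (28.8% and 30.9%), and 19 and 12 in hypocotyls (23.3% and 27.1%). The hypocotyl was the organ with the fewest members called higher on either scale.

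The genes did not all share one pattern. Called higher in all 3 organs were 19 genes, against 13.8% of all genes tested (18 and 12% with median-ratio scaling), among them all 5 H3.1 genes, 4 H4 genes, HTA13, CENH3, HTA6, HTA7, HTA8, HTA11 and 4 H2B genes. Another 10 were called higher in cotyledon and hook and not in hypocotyl, a pattern whose share over all genes was not computed. HTA12 of H2A.W and H1.3 were called lower in all 3 organs, and HTR5 and HTA9 in cotyledon and hypocotyl. The H4 gene AT1G07660 and H1.2 were called in no organ on the deposited scale. AT1G07660 was called higher in cotyledons with median-ratio scaling (0.41, adjusted p = 0.0493) and in hooks when only those libraries were fitted (0.34, adjusted p = 0.0162). Of the 41 genes, 33 had their highest group mean in the pifq hook, as did 24.9% of all genes tested, and with median-ratio scaling 28 did (12.3% of all genes).

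**Figure D2:**
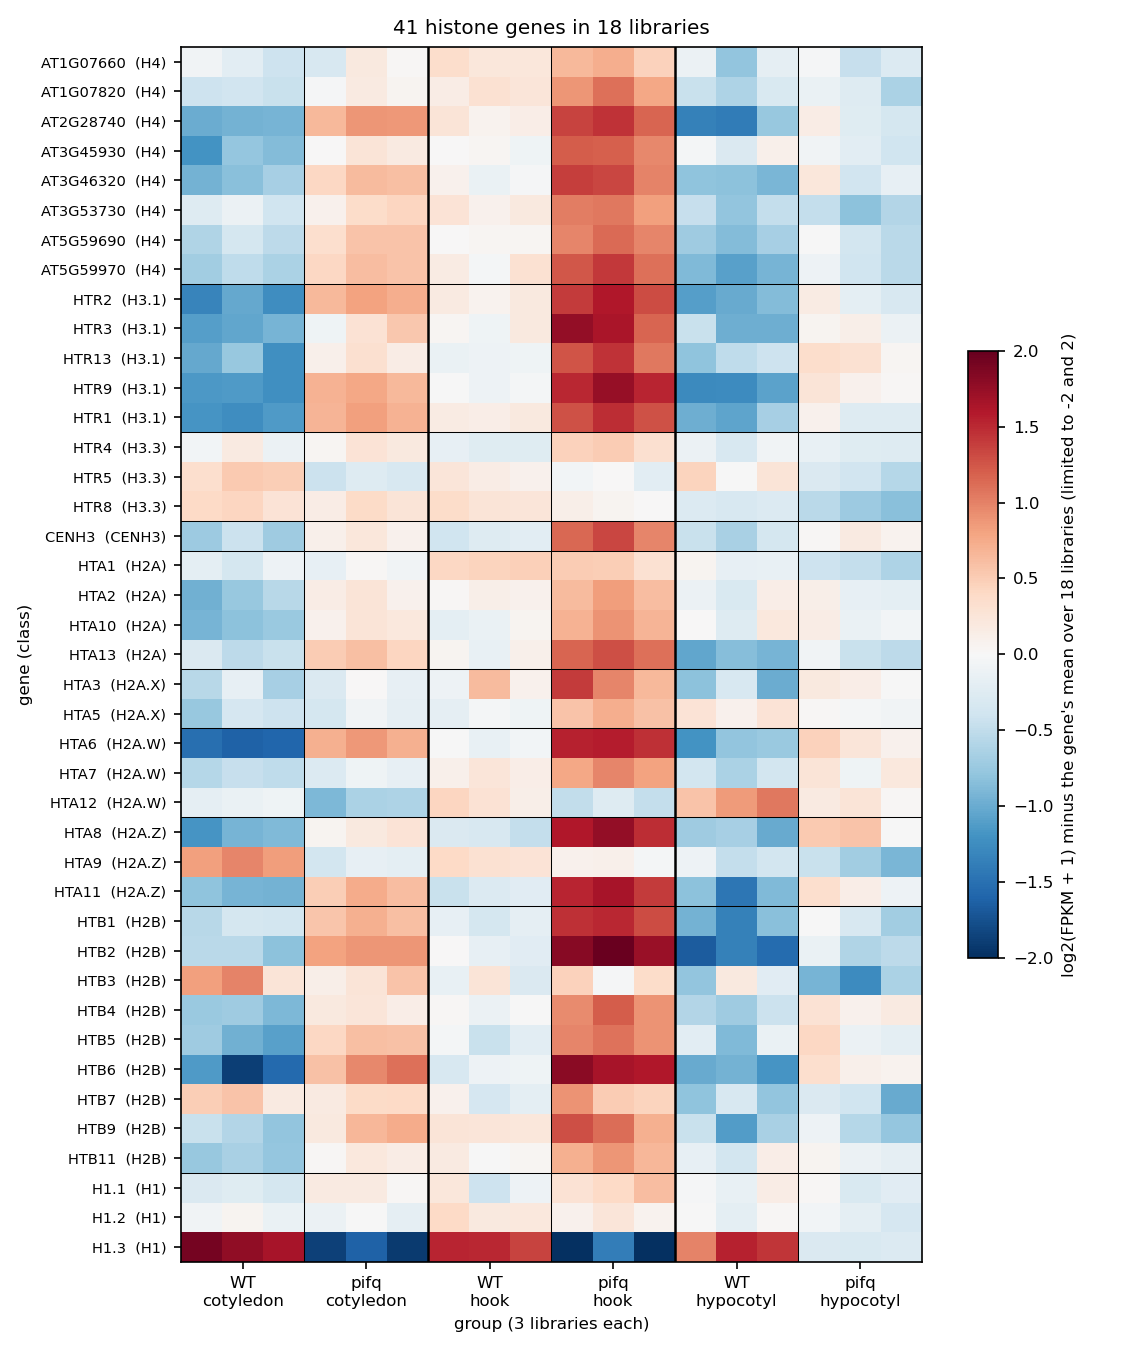
Level of the 41 genes (rows, by class) in the 18 libraries (columns, by group), as log2(FPKM + 1) minus the mean of the gene over all libraries, limited to -2 and 2. The pifq hook columns are red in most rows, while HTR5, HTA9, HTA12 and H1.3 run against that pattern.

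The 8 genes of H4, which pairs with H3 in the nucleosome core, all translate to 1 protein although their coding sequences share only 78.8% to 98.1% of bases. AT5G59690 was the most abundant, with 77.7, 92.8 and 81.7 FPKM in WT and 149, 175.0 and 175 FPKM in pifq cotyledons (log2 change 0.98, SE 0.12, adjusted p = 3.08e-06). The 3 libraries of each genotype did not overlap. In cotyledons and in hooks 7 of the 8 were called higher, with medians of 1.034 and 1.055, and in hypocotyls 4 were, with a median of 0.28. Of all genes tested, 24.4%, 36.6% and 35.9% were called higher in cotyledons, hooks and hypocotyls. With 8 genes, the hypocotyl count is near that share. The largest change was that of AT2G28740, from 19.2, 19.95 and 20.1 FPKM in WT to 61.9, 73.0 and 72.7 FPKM in pifq cotyledons (log2 change 1.75, SE 0.15, adjusted p = 8.85e-08). In hypocotyls it was called higher as well (1.02, adjusted p = 4.84e-05), and so was AT5G59690 (0.45, adjusted p = 0.00507), whose call ended with median-ratio scaling (0.20, adjusted p = 0.171).

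AT3G45930 was called higher in the WT hypocotyl than in the WT cotyledon (0.87, SE 0.13, adjusted p = 1.23e-05). It held 13.6, 18.6 and 17.4 FPKM in WT cotyledons, 32.7, 39.0 and 36.8 FPKM in pifq cotyledons, 31.6, 26.3 and 34.8 FPKM in WT hypocotyls and 30.8, 27.8 and 24.5 FPKM in pifq hypocotyls. Between the genotypes in hypocotyls it was not called on the deposited scale (-0.15, adjusted p = 0.34) and was called lower with median-ratio scaling (-0.39, adjusted p = 0.0208). WT hypocotyls were thus near the level of pifq cotyledons, and its share of all H4 transcripts was 11.95% ± 0.40 in WT hypocotyls (SD, n = 3) against 5.94% ± 0.75 in WT cotyledons. Between 19.4% and 30.8% of the 50-base windows in the exons of AT1G07660, AT1G07820, AT3G45930 and AT3G46320 occur elsewhere in the genome. How shared reads were counted is not given in the sources used here, so the split between these 4 genes is uncertain, and less so for AT5G59690 (8.48%) and AT5G59970 (6.94%).

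All H3.1 genes rose in every organ. The 5 genes encode 1 protein, which differs at 4 of 136 residues from the one that the H3.3 genes HTR5 and HTR8 share, and their log2 changes had medians of 1.87 in cotyledon, 1.36 in hook and 0.82 in hypocotyl. HTR1 held 48.0, 46.0 and 49.9 FPKM in WT and 177, 195 and 180 FPKM in pifq cotyledons (log2 change 1.92, SE 0.11, adjusted p = 9.73e-10). In hooks it held 124, 122 and 126 FPKM in WT and 267, 310 and 269 FPKM in pifq. Hypocotyl libraries of HTR1 gave 55.3, 52.4 and 69.1 FPKM in WT and 117, 91.9 and 91.8 FPKM in pifq. No WT library of HTR1 reached the lowest pifq library of its own organ. The neighbouring genes HTR13 and HTR9, 577 bases apart on chromosome 5, were both called higher in each organ, HTR9 by 1.87 in cotyledons, 1.64 in hooks and 1.32 in hypocotyls. HTR3 was the faintest of the class, at 0.56 to 2.83 FPKM in WT and 2.09 to 10.3 FPKM in pifq, and 328 bases of it overlap SDH2-1 on the same strand.

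Among the H3.1 genes, HTR1 and HTR2 gave the most transcript in every group. HTR1 gave 42.4% ± 3.0 of H3.1 transcripts in WT cotyledons and 43.5% ± 0.21 in pifq cotyledons (SD, n = 3), and its group means ran from 39.8% to 44.25% over the 6 groups. HTR2 ran from 30.7% to 33.1%. HTR9 gave 15.5% ± 0.22 in WT and 19.65% ± 0.43 in pifq hooks, and 14.4% ± 0.37 and 19.6% ± 0.93 in hypocotyls. Summed over 5 genes, H3.1 stood at 113 ± 4.2 FPKM in WT and 423 ± 22.0 FPKM in pifq cotyledons, 280.3 ± 8.1 and 705 ± 67.4 FPKM in hooks, and 133 ± 14.6 and 252 ± 34.9 FPKM in hypocotyls. The lowest pifq library lay above the highest WT library in each organ.

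Canonical H2A rose in cotyledon and hook for 3 of its 4 genes, and in the hypocotyl for 1. Over all genes tested, 24.4%, 36.6% and 35.9% were called higher in cotyledon, hook and hypocotyl, so the hypocotyl count is no more than that share. Of HTA1, HTA2, HTA10 and HTA13, the last 3 were called higher in cotyledons (0.92 to 1.01) and in hooks (0.62 to 1.19). HTA10, the most abundant, held 72.5, 78.6 and 82.8 FPKM in WT and 147, 166 and 162 FPKM in pifq cotyledons, and 139, 117 and 160.3 FPKM in WT and 154, 126 and 134 FPKM in pifq hypocotyls. Its hypocotyl libraries overlapped between genotypes (log2 change near 0), and HTA13 alone was called higher there (0.59, adjusted p = 0.000434). HTA1, known as a gene needed for T-DNA integration in roots, was not called in cotyledon (0.14, adjusted p = 0.202) or hook (-0.01, adjusted p = 0.902) and was called lower in the hypocotyl (-0.41, adjusted p = 0.00141). With median-ratio scaling it was called higher in cotyledons (0.35, adjusted p = 0.00467).

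H2B, the partner of H2A in the dimer, held the largest rise of the 41 genes in the cotyledon. HTB6 went from 2.42, 1.028 and 1.56 FPKM in WT to 10.2, 13.6 and 15.1 FPKM in pifq cotyledons (log2 change 2.40, SE 0.17, adjusted p = 7.02e-09). HTB2 held 76.8, 68.0 and 65.5 FPKM in WT and 273, 305 and 256 FPKM in pifq hooks (log2 change 1.97, SE 0.12, adjusted p = 2.5e-09), and was called higher in the other 2 organs as well. Of the 9 genes, 7 were called higher in cotyledons, 8 in hooks and 4 in hypocotyls, against 24.4%, 36.6% and 35.9% of all genes tested. With 9 genes, the hypocotyl count is near that share. HTB11, the most abundant in WT, gave 32.4% ± 0.38 of H2B transcripts in WT and 22.2% ± 0.60 in pifq hooks, and HTB2 17.8% ± 0.79 and 30.03% ± 0.20. HTB3 and HTB7, at 1.92 to 12.9 and 0.52 to 4.73 FPKM, stood apart. HTB3 was called in neither cotyledon (-0.38, adjusted p = 0.21) nor hook (0.32, adjusted p = 0.28) and was called lower in hypocotyls (-0.67, adjusted p = 0.0328), a call that ended without replicate 2 (-0.44) or 3 (-0.65) of WT or replicate 1 (-0.68) or 2 (-0.52) of pifq. It also ended with limma-voom (adjusted p = 0.079), without the filter (0.0507) and with only the libraries compared (0.0811). HTB7, the H2B gene without the hexamer, was called in the hook and in neither other organ (0.77, adjusted p = 0.00336), on 8 to 59 reads per library.

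**Figure D3:**
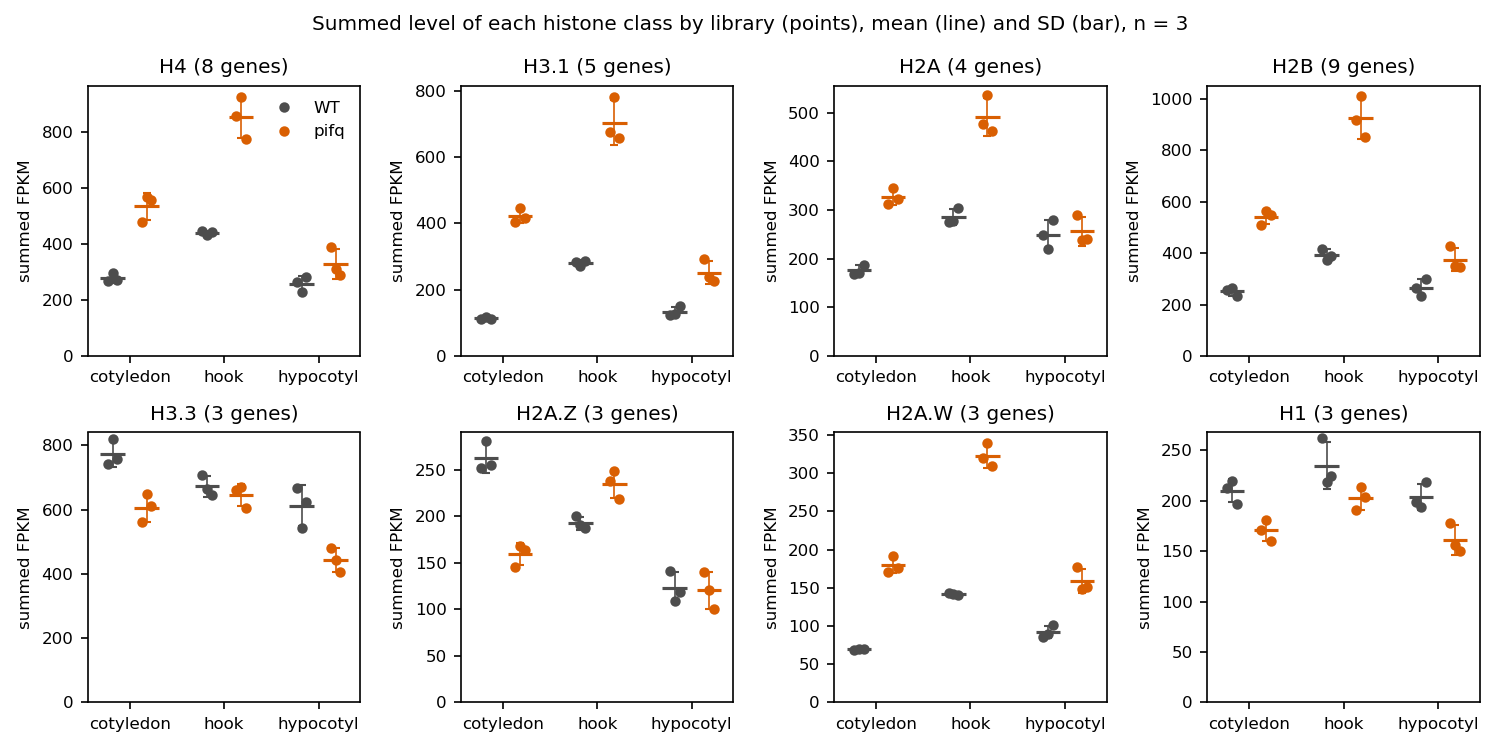
Summed FPKM of 8 histone classes by organ in WT and pifq, with each library as a point, the mean of 3 as a line and the SD as a bar. H4, H3.1, H2A, H2B and H2A.W stand higher in pifq cotyledons and hooks, and H3.3 stands lower in pifq cotyledons and hypocotyls.

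H3.3 did not follow H3.1. The class was abundant in every group, with sums of 773 ± 40.5 FPKM in WT and 606 ± 43.6 FPKM in pifq cotyledons, 672 ± 32.8 and 645 ± 35.7 FPKM in hooks, and 612 ± 63.6 and 443 ± 37.2 FPKM in hypocotyls (SD, n = 3). The hook sums overlapped. HTR5 held 358, 408 and 400.2 FPKM in WT and 210.5, 237 and 229 FPKM in pifq cotyledons (log2 change -0.78, SE 0.12, adjusted p = 2.54e-05), and 389, 283 and 340.1 FPKM against 232, 218 and 191 FPKM in hypocotyls (-0.65, adjusted p = 0.00024). In hooks HTR5 changed by -0.24 (adjusted p = 0.0842), and by -0.42 with median-ratio scaling (adjusted p = 0.00647). HTR8 was called lower in hypocotyls (-0.41, adjusted p = 0.0013) and in hooks (-0.23, adjusted p = 0.0373), the latter ending without any 1 of 5 of the 6 libraries, all but replicate 1 of pifq (-0.19 to -0.25). The hook call of HTR8 also ended with only the libraries compared (adjusted p = 0.0753). HTR4, which lies 42 bases from HTR5 on chromosome 4 on the same strand, was called higher in hooks (0.65, SE 0.10, adjusted p = 2.69e-05). In cotyledons HTR4 changed by 0.16 (adjusted p = 0.158) and in hypocotyls by -0.05 (adjusted p = 0.66), and median-ratio scaling called it higher in the first (0.38, adjusted p = 0.00299) and lower in the second (-0.30, adjusted p = 0.0181). Its share of H3.3 transcripts was 15.7% ± 0.99 in WT and 22.4% ± 0.33 in pifq cotyledons, 15.5% ± 0.28 and 25.3% ± 0.30 in hooks, and 17.6% ± 0.92 and 23.4% ± 1.2 in hypocotyls.

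Within a library, where the scaling cancels, H3.1 transcripts made up 12.8% ± 0.17 of H3.1 and H3.3 together in WT cotyledons and 41.1% ± 0.79 in pifq cotyledons (SD, n = 3). In hooks the shares were 29.5% ± 1.2 and 52.1% ± 1.7, and in hypocotyls 17.9% ± 2.0 and 36.2% ± 1.4. In none of the 3 organs did WT and pifq libraries overlap. The share in pifq hypocotyls lay above that in WT hooks, and pifq hooks had the highest share of the 6 groups.

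H2A.Z, the variant that SWR1 puts at the first nucleosomes of genes, split into genes that moved in opposite directions. HTA9 held 236, 266 and 239.6 FPKM in WT and 104, 119 and 117 FPKM in pifq cotyledons (log2 change -1.12, SE 0.12, adjusted p = 5.72e-07). HTA11 held 12.8, 11.7 and 11.6 FPKM in WT and 33.1, 39.4 and 36.2 FPKM in pifq cotyledons (1.51, SE 0.15, adjusted p = 2.36e-07). HTA8 held 3.14, 3.92 and 4.08 FPKM in WT and 8.74, 9.74 and 10.3 FPKM in pifq cotyledons (1.17, SE 0.15, adjusted p = 4.24e-06). All 3 pifq libraries were thus below WT for HTA9 and above WT for HTA8 and HTA11. The latter pair were called higher in hooks (1.84 and 1.97 for HTA11 and HTA8) and hypocotyls (1.17 and 1.16) too. HTA9 changed by -0.27 in hooks (adjusted p = 0.0521) and by -0.37 in hypocotyls (adjusted p = 0.0141). The hypocotyl call ended without replicate 1 of WT (-0.27) or replicate 3 of pifq (-0.26), and with only the libraries compared (adjusted p = 0.0869). Median-ratio scaling called HTA9 lower in hooks (-0.45, adjusted p = 0.00375).

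The share of HTA9 in H2A.Z transcripts was 94.0% ± 0.40 in WT and 71.2% ± 0.40 in pifq cotyledons, 87.1% ± 1.0 and 59.0% ± 1.2 in hooks, and 87.6% ± 0.74 and 69.4% ± 1.1 in hypocotyls. Canonical H2A stood to H2A.Z as 0.67 ± 0.06 to 1 in WT and 2.05 ± 0.09 in pifq cotyledons, 1.48 ± 0.13 and 2.09 ± 0.08 in hooks, and 2.04 ± 0.29 and 2.15 ± 0.22 in hypocotyls. The 3 pifq organs were close to each other in this ratio and to the WT hypocotyl, whose libraries overlapped those of the pifq hypocotyl, while the WT cotyledon stood lowest.

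**Figure D4:**
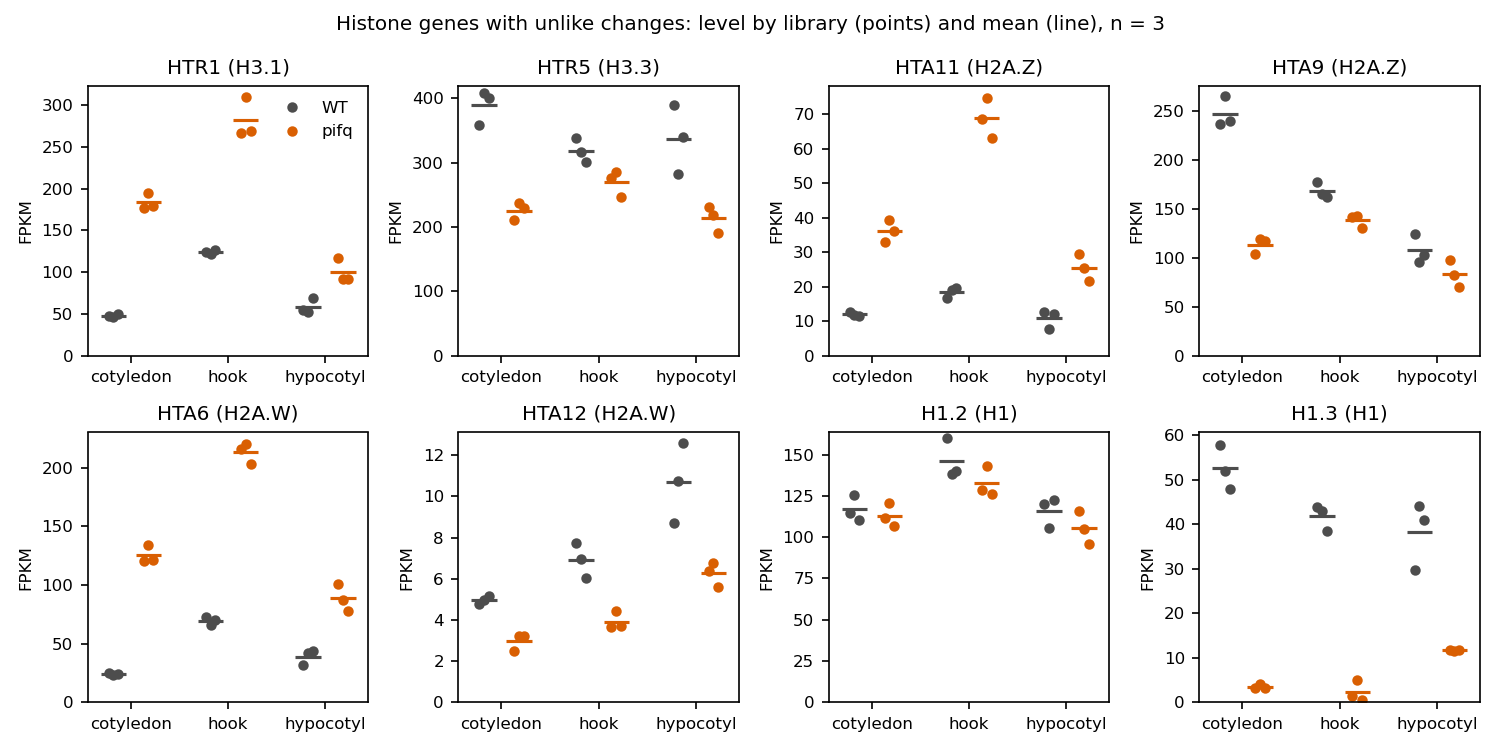
FPKM of 8 genes by organ in WT and pifq, each library as a point and the mean of 3 as a line. HTR1, HTA11 and HTA6 stand higher in pifq, HTA12 and H1.3 lower in all 3 organs, HTR5 and HTA9 lower in cotyledons, and H1.2 overlaps in all 3.

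H2A.W split as well. HTA6 held 25.2, 23.2 and 23.8 FPKM in WT and 120.5, 134 and 121 FPKM in pifq cotyledons (log2 change 2.33, SE 0.11, adjusted p = 1.55e-10). In hooks it held 72.6, 66.1 and 70.4 FPKM in WT and 216, 220.0 and 203 FPKM in pifq (1.60), and in hypocotyls 31.5, 41.8 and 43.4 FPKM against 101, 86.8 and 78.0 FPKM (1.17). HTA12 was called lower in each organ by nearly the same amount (-0.59, -0.68 and -0.67), from 4.77 to 5.17 FPKM in WT to 2.48 to 3.25 FPKM in pifq cotyledons. Of all H2A.W transcripts HTA6 gave 34.7% ± 1.8 in WT and 69.6% ± 0.86 in pifq cotyledons, and HTA7, called higher in each organ by 0.34, 0.69 and 0.58, gave 58.2% ± 1.7 and 28.7% ± 0.67. HTA12 shares 522 bases with AT5G02570 on the other strand, and the library kit does not mark strand, so reads of these 2 genes cannot be told apart.

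CENH3 rose in every organ, from 1.83, 2.13 and 2.22 FPKM in WT to 7.29, 8.43 and 6.32 FPKM in pifq hooks (log2 change 1.44, SE 0.12, adjusted p = 6.21e-08) and by 0.76 in cotyledons and 0.57 in hypocotyls. Of the H2A.X genes, HTA5 was called higher in hooks (0.74, adjusted p = 1.94e-05) and in cotyledons (0.30, adjusted p = 0.0207), where the call ended without replicate 1 of WT (0.18) or replicates 2 or 3 of pifq (0.24 and 0.30). That cotyledon call also ended with rescaling over nuclear genes (adjusted p = 0.0561) and with only the libraries compared (0.0523). In hypocotyls HTA5 changed by -0.23 (adjusted p = 0.0746), and by -0.48 with median-ratio scaling (adjusted p = 0.00276). HTA3, at 0.87 to 8.76 FPKM, was called higher in hooks (0.80) and hypocotyls (0.82), and a protein-coding gene and a long non-coding RNA gene overlap it on the other strand by 259 and 240 bases.

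The linker histones gave the largest fall. H1.3, known in Arabidopsis as the stress-inducible linker histone, held 57.8, 52.0 and 47.9 FPKM in WT and 3.25, 4.07 and 3.13 FPKM in pifq cotyledons (log2 change -3.58, SE 0.31, adjusted p = 7.08e-08). In hooks it held 43.9, 43.1 and 38.5 FPKM in WT and 1.35, 4.93 and 0.57 FPKM in pifq (-3.93, SE 0.31, adjusted p = 2.81e-08), and -4.48 without replicate 2 of pifq, the library that stood apart. Without replicate 3 of pifq, the lowest, H1.3 changed by -3.52 in hooks. In hypocotyls it held 29.8, 44.1 and 40.9 FPKM in WT and 11.7, 11.6 and 11.8 FPKM in pifq (-1.61, SE 0.31, adjusted p = 0.00042). No library overlapped in any organ, and the pifq hypocotyl kept the most. H1.2, the most abundant of the 3, was called in no organ (-0.05, -0.14 and -0.13) on the deposited scale, and H1.1 was called higher in cotyledons (0.42, adjusted p = 0.015) and hooks (0.54, adjusted p = 0.0032). A long non-coding RNA gene overlaps H1.1 on the other strand by 484 bases, and another overlaps HTB9 by 249 bases, so their reads cannot be told apart either. With median-ratio scaling H1.2 was called lower in hooks (-0.31, adjusted p = 0.00761) and hypocotyls (-0.38, adjusted p = 0.0027), and H1.1 in hypocotyls (-0.40, adjusted p = 0.0224). H1.3 gave 25.1% ± 1.8 of H1 transcripts in WT and 2.03% ± 0.19 in pifq cotyledons, and the ratio of summed H1 to summed H4 was 0.76 ± 0.04 in WT and 0.32 ± 0.04 in pifq cotyledons, 0.53 ± 0.05 and 0.24 ± 0.02 in hooks, and 0.79 ± 0.06 and 0.49 ± 0.03 in hypocotyls.

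Set side by side, the 17 replication-coupled genes (H4, H3.1 and canonical H2A) and the 6 replacement genes (H3.3 and H2A.Z) are given with the shares of all genes called higher and lower (24.4% and 35.4% in cotyledons, 36.6% and 24.0% in hooks, 35.9% and 16.5% in hypocotyls). Of the 17, 15 were called higher and none lower in cotyledons, 15 and none in hooks, and 10 and 1 in hypocotyls, with medians of 1.09, 1.13 and 0.59 in log2 change. Of the 6, 2 were called higher and 2 lower in cotyledons, 3 and 1 in hooks, and 2 and 3 in hypocotyls, with medians of 0.03, 0.21 and -0.21. With 6 genes, the cotyledon and hook counts of the replacement genes are near those shares. The replacement genes called higher in more than 1 organ were HTA8 and HTA11. These medians stand beside -0.10, 0.12 and 0.17 over all genes, and the difference between the classes was described and not tested.

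**Figure D5:**
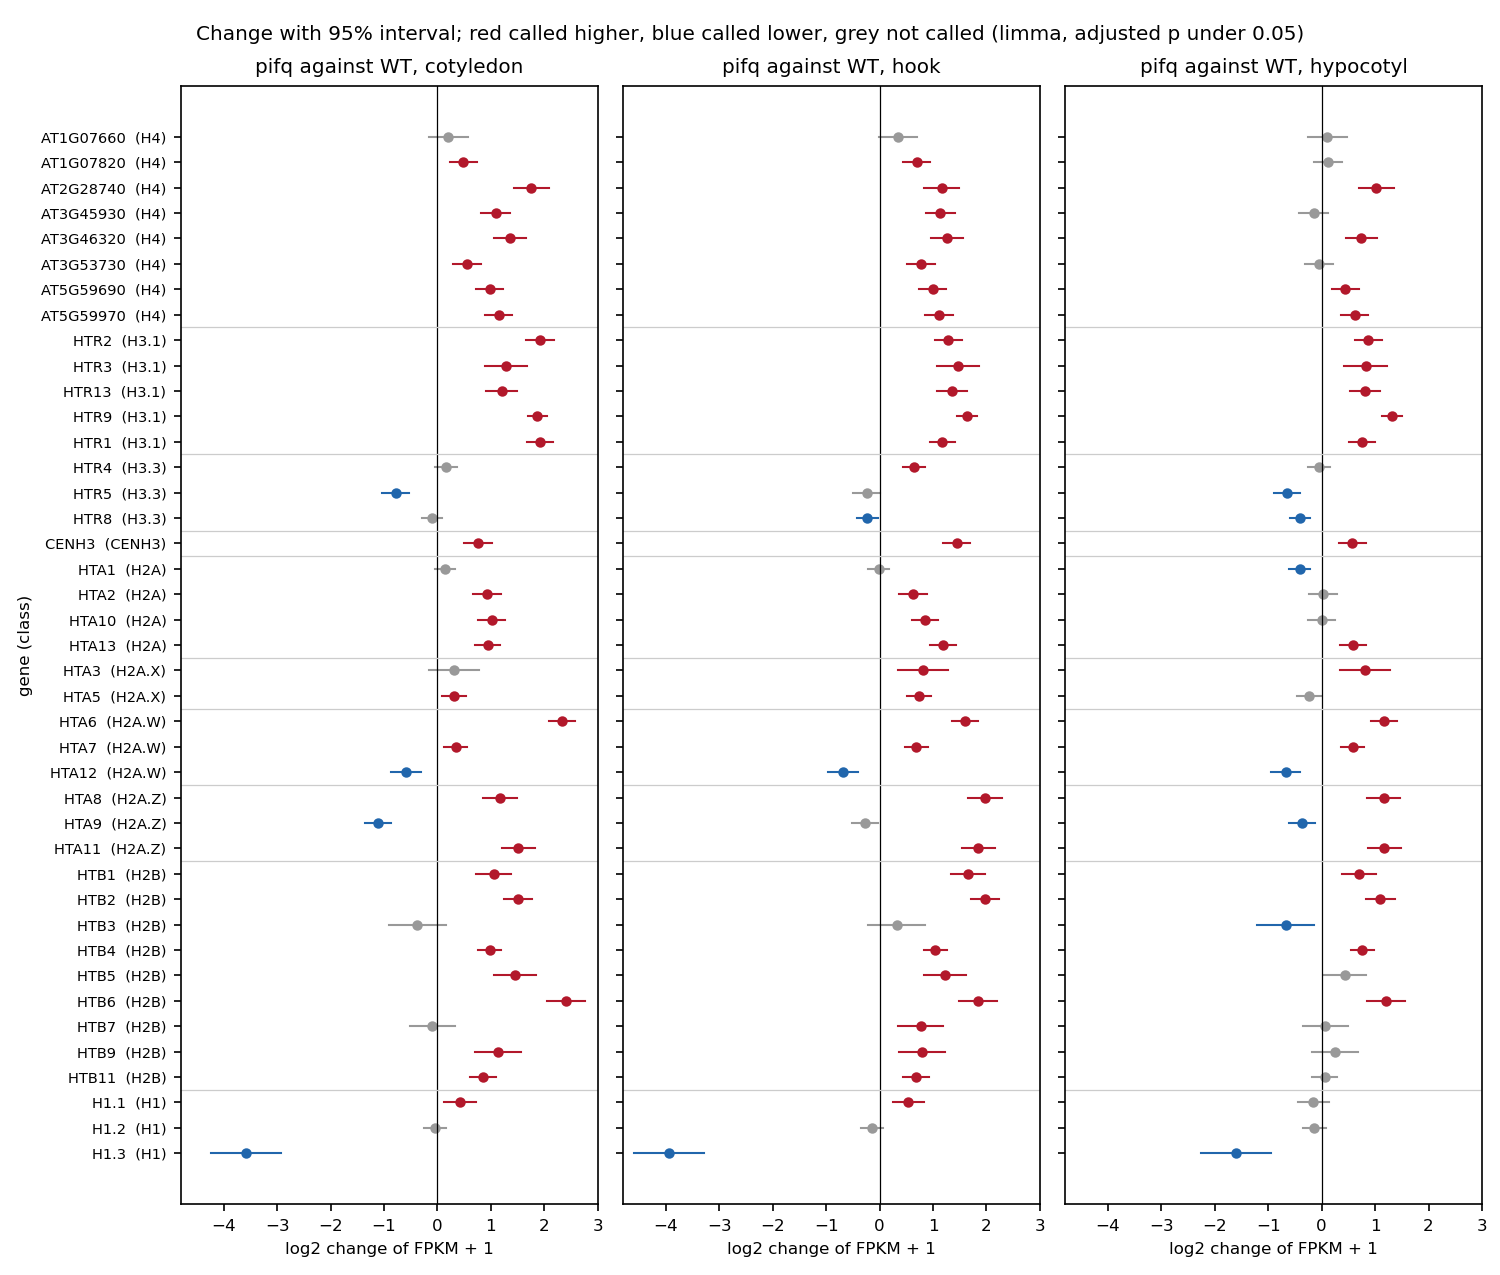
Log2 change of FPKM + 1 of each gene, pifq against WT, in cotyledon, hook and hypocotyl, with its 95% interval and with the call shown in colour. H4, H3.1 and H2B genes lie mostly right of 0, and H1.3 lies far to the left in all 3 organs.

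The same genes differed between organs in WT. The WT hook had 32 members called higher and 4 lower than the WT cotyledon (33.9% and 23.9% of all genes), and all 17 replication-coupled genes were among the higher, led by HTR1 (1.35) and HTR2 (1.34). HTA9 (-0.55), HTB3 (-0.74), HTB7 (-0.57) and HTR5 (-0.29) were the 4 called lower, and the count was 1 or 2 when replicate 1 or 2 of the WT cotyledon or replicate 2 or 3 of the WT hook was left out. The WT hypocotyl had 28 called lower and 2 higher than the WT hook (41.9% and 22.8%), the 2 being HTA12 (0.55) and HTA5 (0.31). Without replicate 1 of the WT hook or replicate 1 or 3 of the WT hypocotyl, 1 gene was called higher. Between the WT hypocotyl and the WT cotyledon 11 were called higher and 9 lower (36.3% and 37.7%), with HTA12 (0.96) and AT3G45930 (0.87) at one end and HTA9 (-1.20) at the other.

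In pifq the hook had the highest level of most members on the deposited scale. There 34 members were called higher in the pifq hook than in the pifq cotyledon and none lower (53.4% and 11.4% of all genes), led by HTA8 (1.43) and HTR3 (1.27). With median-ratio scaling 13 were called higher and 4 lower (20.3% and 26.7%), so the count depends on the scaling. The pifq hypocotyl had 39 called lower and 2 higher than the pifq hook (37.6% and 27.1%), the 2 being H1.3 (2.18) and HTA12 (0.56), and against the pifq cotyledon 24 lower and 3 higher (22.4% and 49.5%). With median-ratio scaling these 2 comparisons gave 37 lower and 2 higher (29.7% and 33.0% of all genes), and 35 lower and 2 higher (33.1% and 35.6%). HTB2 fell furthest in both, by 2.26 and 1.28 on the log2 scale.

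The genotype effect differed between organs, mostly by being smaller in the hypocotyl. Against the cotyledon, the effect in the hypocotyl was called lower for 19 members and higher for 2 (11% and 34.7% of all genes), and with median-ratio scaling for 32 and 1 (23.7% and 15.7%). Among them were 12 of the 17 replication-coupled genes, with AT3G45930 (-1.24, SE 0.18, adjusted p = 5.28e-05) and HTR1 (-1.16, SE 0.16, adjusted p = 3.08e-05) at the head. The 2 with a higher effect, H1.3 (1.97, SE 0.44, adjusted p = 0.00182) and HTA9 (0.75, SE 0.17, adjusted p = 0.00175), are genes whose fall was smaller in the hypocotyl. With median-ratio scaling the difference of H1.3 was 1.58 (adjusted p = 0.00566) and that of HTA9 was 0.29 and not called (adjusted p = 0.182). Against the hook, the hypocotyl effect was lower for 21 members and higher for 1, H1.3 (12.5% and 16.6%). Between hook and cotyledon 9 were called higher and 4 lower (30.5% and 10.9%). With median-ratio scaling these last counts were 1 and 12 (14.3% and 21.9%). Without replicate 2 of the WT cotyledon or replicate 1 of the pifq cotyledon, 5 were called higher. HTA9 (0.84) and HTA8 (0.80) were among the 9, and HTR1 (-0.74), HTA6 (-0.73), HTR2 (-0.63) and AT2G28740 (-0.59) were the 4.

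Genes that handle histones were described from a list of 27 chaperones and remodellers. In cotyledons 7 were called higher and 7 lower, near the shares of all genes (24.4% and 35.4%). In hooks 19 and none were (36.6% and 24.0%), and in hypocotyls 20 and none (35.9% and 16.5%). The CAF-1 subunits FAS1 and FAS2 were called higher in all 3 organs, FAS2 from 1.34 to 3.91 FPKM in cotyledons, 2.75 to 8.19 in hooks and 1.40 to 2.81 in hypocotyls (group means, log2 changes 1.08, 1.296 and 0.71). MSI1, the third CAF-1 subunit and a member of other complexes too, was called lower in cotyledons (-0.57, adjusted p = 2.94e-05), not called in hooks (0.07, adjusted p = 0.529) and called higher in hypocotyls (0.21, adjusted p = 0.0463). DDM1, the remodeller known to deposit H2A.W, was called higher in all 3 as well, from 3.86 to 14.2 FPKM in hooks (1.64, adjusted p = 4.87e-09). The H2A-H2B chaperones NAP1;1 and NAP1;2 were called lower in cotyledons (-1.002 and -0.83) and higher in hooks (0.58 and 0.34) and hypocotyls (0.65 and 0.57). HIRA, of the complex that deposits H3.3, was called lower in cotyledons, from 5.55 to 3.3 FPKM (-0.61, adjusted p = 0.000112), and in no other organ. With median-ratio scaling the chaperone counts were 11 higher and 7 lower in cotyledons (32.9% and 27.0% of all genes), 16 and none in hooks (28.8% and 30.9%), and 11 and 1 in hypocotyls (23.3% and 27.1%).

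The replication genes of a list of 12, among them MCM2 to MCM7 of the helicase and PCNA1 and PCNA2 of the sliding clamp, were all called higher in all 3 organs, with medians of 0.92, 1.48 and 1.13. Over all genes tested, 13.8% were called higher in all 3 organs. PCNA1 stood at 4.59 FPKM in WT and 12.6 in pifq cotyledons, 6.84 and 31.7 in hooks, and 6.29 and 16.5 in hypocotyls (group means). Of 6 mitotic genes, 6, 6 and 5 were called higher (medians 1.89, 2.56 and 1.028), led in each organ by the cytokinesis syntaxin KN. The shares of all genes called higher were 24.4%, 36.6% and 35.9% in cotyledons, hooks and hypocotyls. The hypocotyl median of the replication list was above that of the 17 replication-coupled histone genes (0.59), a difference that was not tested. Of the G1/S regulators, E2FA was called higher in all 3 organs (0.54, 0.99 and 0.45). It was the 1 of 6 listed genes so called in cotyledons, and 5 of 6 were in hooks and in hypocotyls (2, 4 and 1 with median-ratio scaling). With that scaling 32.9%, 28.8% and 23.3% of all genes were called higher.

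Cell type markers were followed beside these genes, and those of the stomatal lineage moved with genotype. The summed level of 7 stomatal lineage markers was 34.2 to 40.1 FPKM in WT and 67.5 to 77.2 in pifq cotyledons, 8.01 to 14.4 and 41.03 to 55.6 in hooks, and 2.92 to 5.005 and 8.09 to 14.46 in hypocotyls. Of the 7, 6, 7 and 6 were called higher, against 24.4%, 36.6% and 35.9% of all genes tested. Shoot meristem and boundary markers summed to 18.7 to 25.5 FPKM in WT and 12.5 to 17.3 in pifq cotyledons, 74.5 to 90.6 and 82.3 to 134 in hooks, and 59.1 to 76.0 and 131 to 181 in hypocotyls, with 2 of 8 called lower in cotyledons and 4 and 3 called higher in hooks and hypocotyls. With 8 genes, these counts are near the shares of all genes. Those shares were 35.4% lower in cotyledons, and 36.6% and 35.9% higher in hooks and hypocotyls. Calls of these markers in the other direction are not given. In hooks and hypocotyls KNAT1 made up most of the meristem sum, with group means of 56.2 FPKM in WT and 61.55 in pifq hooks and 48.0 and 126 in hypocotyls. The stem cell organizer gene WUS was at 0 in every library of 3 groups and below 1 FPKM in the other group means. The 4 genes listed as root markers summed to 17.3 to 36.7 FPKM over all libraries, of which SCR alone gave 16.75 to 31.6 FPKM, with SMB and BRN1 below 1 FPKM in every group mean. That sum is mostly SCR and does not by itself show root tissue. The part of these cell types, and of the organelle share given above, in the histone results was not tested.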

How the data were processed

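Values were used as deposited, 1 table of FPKM per library. The submitters' processing notes name HISAT2, DESeq2 and TAIR10, without roles or versions, and the authors' counting of shared reads is not given in the sources used here. That the deposited unit is FPKM was read from the values: with TAIR10.1 merged exon lengths, 99.37% to 99.5% of values under 100 reads were whole multiples of 1 read (within 0.05 reads). Per the labels' protocols, Trizol extraction and a DNase I step came before library construction (NEBNext Ultra RNA), a kit that leaves strand unmarked. The 41 members and all gene lists were chosen with earlier results of these data known.

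Genes with at least 1 FPKM in 3 libraries (19349 genes) were fitted with limma 3.58.1 in R 4.3.3 (trend, 6 group means, 18 libraries) on log2(FPKM + 1). Each of 12 contrasts was adjusted by Benjamini-Hochberg over all genes, with calls at 0.05. All adjusted p-values in the text are limma's unless a setting is named. Any of the 41 members could be named. Of the histone-handling, G1/S, S phase and M phase lists, up to 3 called rises and 3 called falls per organ were eligible, those of largest change without overlap between genotypes, with their values in the other organs. MSI1 was named after its values were seen. Class sums, shares and promoter matches were computed with Python 3.11.15, pandas 2.3.3 and numpy 2.4.6, and the fit was tested on simulated data. Alternatives were a pseudocount of 0.1, no filter, a minimum of 5 FPKM, median-ratio scaling, rescaling over nuclear genes, a replicate block, fits to the compared groups alone and leaving out each library. A limma-voom fit on recovered reads was added after seeing the data. Depth ran from 12955815 to 20701103 reads or pairs, so the faintest members rest on few reads, such as HTR3 on 6 to 161.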

Additional observations from a re-analysis of the deposited data

Results flagged for a closer look

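Of the 41 histone genes, 8 had a pifq effect in the hypocotyl that differed from that in another organ by at least 1 on the log2 scale, with the difference itself tested as an interaction in limma. Over all genes tested the share was 22.8%, so 8 of 41 is no more than that share. With median-ratio scaling 19 of the 41 did, and 20.3% of all genes. Against the cotyledon the effect was smaller for AT3G45930 (-1.242), HTB6 (-1.191), HTR1 (-1.16), HTA6 (-1.159), HTR2 (-1.047), HTB5 (-1.014) and HTA10 (-1.011). These are genes of H4, H2B, H3.1, H2A.W and H2A that rose in pifq cotyledons. H1.3, which fell in every organ, had an effect higher by 1.972 in the hypocotyl than in the cotyledon and by 2.325 than in the hook. AT3G45930 also differed between hypocotyl and hook (-1.283). These 10 differences were picked by an adjusted p under 0.05 and a size of at least 1. Their adjusted p in limma ran from 3.08e-05 for HTR1 to 0.00538 for HTB5. Chloroplast-encoded transcripts were lower than in WT in all pifq cotyledon and hook libraries and in replicate 3 of the pifq hypocotyl, at 316 FPKM against 2867 and 4307 in replicates 1 and 2. Their part in these differences was not tested.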

How the results depend on the processing

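Each call of the 41 genes in the 3 genotype comparisons was refitted under the alternatives. The call was kept in 111 of 123 cases with median-ratio scaling, 117 with only the libraries compared, 119 with rescaling over nuclear genes, 120 with limma-voom, 122 without the filter and 123 with a pseudocount of 0.1. Leaving out 1 library kept 719 of 738. With median-ratio scaling the median of the replication-coupled genes was 1.305, 0.9585 and 0.354 in cotyledon, hook and hypocotyl, and that of the replacement genes 0.2451, 0.03329 and -0.4541. The replacement median in cotyledons turned sign with nuclear rescaling (-0.05307) and limma-voom (-0.007704), and ran from -0.02448 to 0.09002 without 1 library, while the replication-coupled median ran from 1.001 to 1.179. Members called lower in hooks were 6 with median-ratio scaling, 5 with nuclear rescaling and 5 with limma-voom, and in hypocotyls 12 with median-ratio scaling. The same scaling gave 5 called higher in the WT hypocotyl than in the WT hook. For that count no share of all genes is given. The same holds for nuclear rescaling, limma-voom, the pseudocount of 0.1 and the fits without 1 library. For the pifq hook against the pifq cotyledon, median-ratio scaling gave 13 higher and 4 lower (20.3% and 26.7% of all genes). A pseudocount of 0.1 gave 1 lower there. Median-ratio scaling gave 1 higher and 12 lower for the effect in hook against cotyledon, and 1 higher and 32 lower for hypocotyl against cotyledon. Without 1 library, the count lower in the WT hook than in the WT cotyledon ran from 1 to 4, that higher in the WT hypocotyl than in the WT hook from 1 to 2, that lower in the pifq hook than in the pifq cotyledon from 0 to 1, and that of higher effects in hook against cotyledon from 5 to 9. The cause was not tested.

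A replicate block changed 1 genotype call, that of HTB5 in hypocotyls (0.44, adjusted p = 0.0467 with the block and 0.0596 without), and kept 29 members higher in cotyledons. Same-numbered libraries correlated at -0.221 to 0.247, with 15 of 45 pairs over 0.1. Pairs of different number correlated at -0.283 to 0.245, with 20 of 90 over 0.1. Within an organ, 10 of 18 libraries correlated best with their own number. The main fit did not take the numbers as pairs, and the labels do not say whether same-numbered libraries share an origin. Depth limits HTR3, HTB7, HTA3 and the low libraries of H1.3 (10 reads at the lowest).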
